A study of Mus musculus with 2 samples.

Results

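High-Prl lactotropes were the 2669 of 13663 cell barcodes in which Prl, the prolactin gene, took more than 15% of all unique molecular identifiers (UMIs, which mark single captured transcripts). They also had less than 10% of UMIs from Gh, the growth hormone gene, less than 1% from Pomc and less than 1% from Cga, at least 250 genes, at most 20% mitochondrial UMIs and fewer than 6 UMIs in all of 8 mitotic genes. The cells came from the pituitary glands of untreated wild-type male C57BL/6 mice, an inbred strain, aged 7 weeks and housed singly. Glands were digested for 4 h in 2 pools of 3 glands, and each pool gave 1 droplet library of the 3′ type, so the pools and not single animals are the replicates. High-Prl lactotropes numbered 1189 in library 1 and 1480 in library 2. They were compared with 5 other groups cut from the same libraries by hormone shares. Lower-Prl cells (262 and 318) had 2 to 15% Prl, and cells rich in both hormones (58 and 42) had over 15% Prl with at least 10% Gh. Somatotropes (3398 and 3412) had over 30% Gh, gonadotropes (276 and 295) at least 1% Cga with at least 0.1% Lhb, and Pomc cells (246 and 294), which pool corticotropes and melanotropes, at least 5% Pomc. The last 3 had less than 2% Prl.

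Lactotropes are the anterior pituitary cells that make prolactin, the hormone named for its part in milk production. Prolactin is threaded into the endoplasmic reticulum through the translocon, loses its signal peptide there, folds, and is packed into dense-core granules that wait for release. Hypothalamic dopamine holds release down through the receptor encoded by Drd2, while thyrotropin-releasing hormone, vasoactive intestinal peptide and oestrogen raise it, and the transcription factor encoded by Pou1f1 is needed for lactotropes, somatotropes and thyrotropes to form.

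The values that chose the cells are given as a description. The median Prl share among high-Prl lactotropes was 34.8% in library 1 (lowest 15.1%, highest 66.1%) and 38.6% in library 2 (lowest 15.045%, highest 70.8%). Gh took medians of 0.962% and 0.745%. Shares of that order were met in cells of other types too, with 1.03% and 0.864% in Pomc cells and 0.867% and 0.687% in gonadotropes. The cells made up 18.3% of the barcodes kept in library 1, with a 95% interval (exact binomial) of 17.3 to 19.2%, and 21.0% in library 2, with one of 20.02 to 21.9% (counting error only), or 19.6 ± 1.90% (SD, n = 2). They held 84.7% and 87.5% of all Prl UMIs of their libraries, with 15.3% and 18.5% of all UMIs. The Prl share had no gap at 15%. There were 27 and 21 cells between 15 and 16%, against 29 and 35 cells otherwise alike between 14 and 15%. The bound on Gh was crossed by few cells, with 2 and 0 cells between 9 and 10% inside it and 1 and 1 between 10 and 11% outside it. The mitotic bound alone left out 18 and 17 cells, and the bounds on Pomc and Cga alone 23 and 16.

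**Figure D1:**
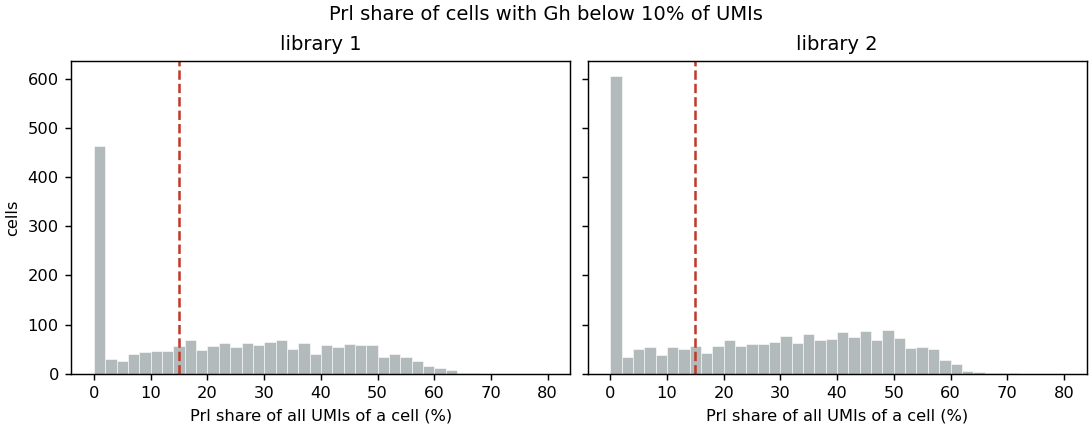
Number of cells (vertical axis) by the share of Prl among all UMIs of the cell in percent (horizontal axis, bins of 2 points) in library 1 (left) and library 2 (right), for kept cells below the bounds on Gh, Pomc, Cga and mitotic genes. The dashed line marks 15%; a broad run of cells from 2% to about 60% Prl crosses it with no gap, and cells below 2% form the tall first bar (463 and 606 cells).

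The libraries held 70813117 and 78861988 UMIs, with medians of 10128 and 10636 per barcode, and 54 barcode sequences occurred in both libraries, 3 of them as high-Prl lactotropes in both. High-Prl lactotropes had medians of 8957 and 9531 UMIs, of which 5630 and 5724 lay outside Gh and Prl, with 2180 and 2200 genes and 2.74% and 2.47% mitochondrial UMIs. Markers of lactotropes other than Prl (Angpt1, Hepacam2, Asb4, Edil3 and Ramp1, which were picked with earlier results on these cells known) summed to 925 and 919 counts per 1000000 (CPM) outside Gh and Prl, against 923 and 911 CPM in lower-Prl cells and 56.4 and 50.5 CPM in somatotropes. All 5 were detected, but so they were in somatotropes, gonadotropes and Pomc cells, so only their height sets the cells apart. As the markers were picked on these cells, that height describes the label and does not test it. The 6 endothelial markers summed to 42.8 and 35.8 CPM, against 12429 and 11142 CPM in 116 and 150 endothelial cells of the same libraries. The 5 macrophage markers summed to 14.9 and 20.4 CPM, and 4 and 3 of 5 lymphocyte markers were at 0. Fibroblast and pericyte markers were not low. They summed to 184 and 160 CPM, against 99.2 and 95.5 CPM in somatotropes and 87.7 and 157 CPM in the endothelial cells. Most of this was Col1a2, at 140 and 152 CPM. Lhb stood at 113 and 92.1 CPM in high-Prl lactotropes and at 76.3 and 59.3 CPM in the endothelial cells, which do not make it, so levels of that order were met in cells of another type too.

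**Figure D2:**
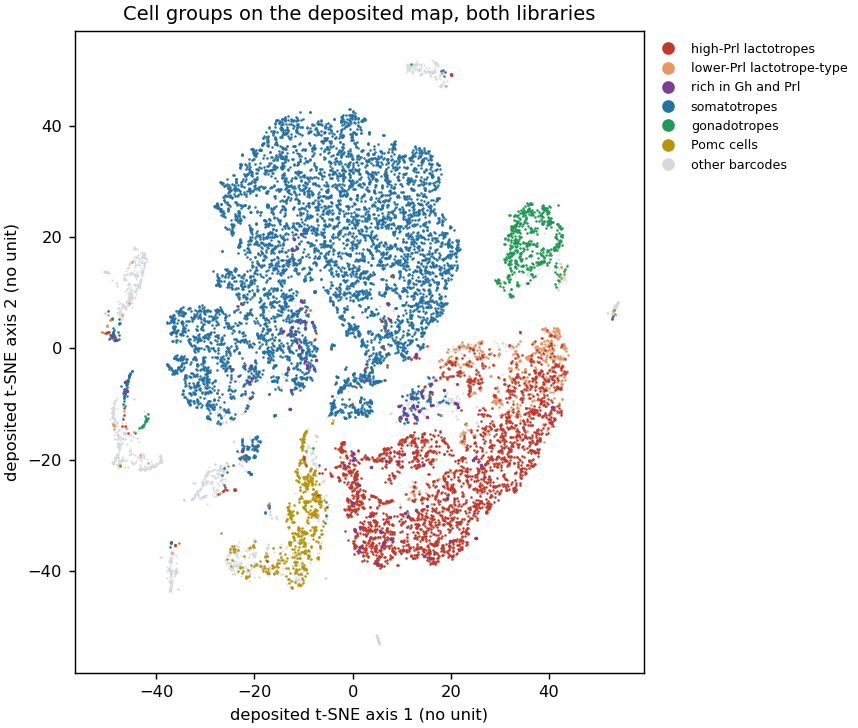
The deposited t-SNE map, an arrangement of cells by similarity whose axes have no unit, with each barcode of both libraries drawn as a point and coloured by cell group. High-Prl lactotropes (red) form an arc at the lower right with lower-Prl cells (orange) at its upper end, apart from somatotropes (blue), gonadotropes (green) and Pomc cells (yellow).

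On the deposited map, 84.0% (library 1) and 85.6% (library 2) of the 15 nearest barcodes of a high-Prl lactotrope were high-Prl lactotropes too, and 8.79% and 6.76% were lower-Prl cells. Somatotropes supplied 1.04% and 1.63% of these neighbours. The map was computed by the authors from the same counts, so it describes the group and does not test it.

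The promoters of 3 genes are shown as a description, and no result rests on them: Prl itself, Pou1f1, whose product is known to bind and activate the prolactin promoter, and Chgb, whose level followed that of Prl. Each run is the 250 bases before a transcription start on the plus strand, from RefSeq (GRCm38.p6), at chr13:27057320-27057569 for Prl, chr16:65520262-65520511 for Pou1f1 and chr2:132781392-132781641 for Chgb. In the GENCODE annotation Chgb begins upstream, at 132781278, so that by it the run shown lies within the gene. Of the 2 windows listed for Pou1f1 the one that holds TATNCAT is shown. Capitals mark every match of TATNCAT, the core letters of the site of Pou1f1, of TATAAA, the letters of a TATA box, and of TGACGTCA, the palindromic cyclic AMP response element, each searched in all 3 promoters and on both strands.
Prl: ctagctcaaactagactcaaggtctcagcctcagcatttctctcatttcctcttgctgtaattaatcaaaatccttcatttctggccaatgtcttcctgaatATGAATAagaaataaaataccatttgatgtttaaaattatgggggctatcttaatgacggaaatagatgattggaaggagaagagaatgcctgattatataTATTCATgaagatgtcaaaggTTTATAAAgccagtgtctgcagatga
Pou1f1: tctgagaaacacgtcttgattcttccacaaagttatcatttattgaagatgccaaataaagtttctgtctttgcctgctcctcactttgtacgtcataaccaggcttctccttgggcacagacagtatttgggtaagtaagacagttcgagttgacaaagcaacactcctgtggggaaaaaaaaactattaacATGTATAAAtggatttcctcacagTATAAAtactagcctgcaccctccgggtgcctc
Chgb: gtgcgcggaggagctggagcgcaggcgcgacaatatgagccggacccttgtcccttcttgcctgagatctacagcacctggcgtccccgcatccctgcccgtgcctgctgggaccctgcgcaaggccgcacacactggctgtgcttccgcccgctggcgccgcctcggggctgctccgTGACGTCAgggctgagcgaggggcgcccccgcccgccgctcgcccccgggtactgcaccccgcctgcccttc
In the Prl promoter TATNCAT began at -148 on the reverse strand and at -47 on the forward strand, counted back from the start, and TATAAA at -24 on the forward strand, overlapped by a match on the reverse strand at -26. The Pou1f1 promoter held TATNCAT at -57 on the reverse strand, overlapped by TATAAA at -54, and TATAAA once more at -33. The Chgb promoter held TGACGTCA at -72 and neither of the other motifs. Of 32851 promoter windows of this length, 7.92% held TATNCAT, 12.4% TATAAA and 1.55% TGACGTCA. The table matched 9 of the 12 genes made up of Prl, the 10 leading genes described next and Ramp1. Of these, 3 of the 9 (Prl, Pou1f1 and Ramp1) had a window with TATNCAT, or 3 of their 11 windows. A match describes the letters and does not show binding.

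High-Prl lactotropes differed from the equally weighted mean of somatotropes, gonadotropes and Pomc cells in a set of surface and secreted proteins, in their receptors and in the machinery of the endoplasmic reticulum. Hepacam2, which encodes a cell adhesion protein of the immunoglobulin superfamily, was at 243 and 237 CPM in high-Prl lactotropes, against 11.7 and 11.4 CPM in somatotropes, 1.64 and 0.359 CPM in gonadotropes and 6.46 and 0.668 CPM in Pomc cells. Agtr1a, a receptor for angiotensin II, was at 149 and 167 CPM, against 1.47 and 1.67 CPM in somatotropes, 2.05 and 0.359 CPM in gonadotropes and 19.4 and 16.7 CPM in Pomc cells. In both genes the libraries of the high-Prl lactotropes lay far above every library of these 3 groups. Here and down to the list of immediate early genes, the other 6 libraries are sums of somatotropes, gonadotropes and Pomc cells per library. They come from the same 2 pools as the high-Prl lactotropes and are not further replicates. Lower-Prl cells and cells rich in both hormones lay much closer, with Hepacam2 at 209.8 and 196 CPM in lower-Prl cells and 159 and 147 CPM in cells rich in both. Angpt1, the ligand of the endothelial receptor Tie2, was at 94.98 and 104 CPM in high-Prl lactotropes and at 1.64 to 4.04 CPM in the other 6 libraries, a log2 fold change of 5.26 ± 0.13 (SE, edgeR adjusted p = 2.26e-37). CPM here and below are of the UMIs outside Gh and Prl, scaled by TMM factors, as Prl alone would otherwise lower every other gene. Log2 fold changes are given with their standard error. Every adjusted p comes from the quasi-likelihood test of edgeR (Benjamini-Hochberg, over all genes tested). A library term takes out the common difference between the 2 pools. The spread used is thus how far differences between the cell groups disagreed between these pools.

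Among genes that reached 50 CPM or more in the higher group, the 10 with the highest log2 fold change against this mean were Hepacam2 (6.16 ± 0.11), Agtr1a (5.62 ± 0.12), Angpt1, Asb4 (5.18 ± 0.10), Myoc (4.95 ± 0.13), Hmcn1 (4.91 ± 0.17), Gabra2 (4.80 ± 0.15), Edil3 (4.77 ± 0.11), Pou1f1 (4.50 ± 0.08) and Ptpro (3.94 ± 0.16). All 10 were higher in both libraries. Asb4, an imprinted gene for a substrate adaptor of a ubiquitin ligase, was at 238 and 255 CPM in high-Prl lactotropes, against at most 18.4 CPM in somatotropes, gonadotropes and Pomc cells. In cells rich in both hormones it was at 131 and 171 CPM. Edil3, an integrin ligand of the extracellular matrix, was at 135 and 125 CPM, against 1.44 to 9.35 CPM. Myoc, the secreted protein myocilin, was at 139 and 134 CPM in high-Prl lactotropes, 37.9 and 36.0 CPM in somatotropes and at most 2.05 CPM in gonadotropes and Pomc cells. Gabra2, a subunit of the GABA-A receptor, was at 61.2 and 51.3 CPM in high-Prl lactotropes and 34.7 and 36.7 CPM in Pomc cells, but at most 0.819 CPM in somatotropes and gonadotropes. Ramp1, which encodes a partner protein of the calcitonin receptor-like receptor, was at 170.1 and 169 CPM in high-Prl lactotropes and 8.08 to 26.6 CPM in the other 6 libraries (3.53 ± 0.09). Angpt1, Hepacam2, Asb4, Edil3 and Ramp1 were picked as markers with results on these cells known, so their height here is a description. In the annotation of the same genome build (mm10) Hepacam2 lies at chr6:3457096-3498298, Agtr1a at chr13:30336441-30382867, Angpt1 at chr15:42424723-42676977 and Prl at chr13:27057570-27065205, all protein-coding.

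By the same minimum of 50 CPM, the 10 lowest log2 fold changes belonged to Figf (-5.83 ± 0.44), Cidea (-4.76 ± 0.13), Rasgrf1 (-4.74 ± 0.22), Atp2b4 (-4.62 ± 0.21), Alcam (-4.42 ± 0.10), Rgs4 (-4.30 ± 0.20), Arhgap36 (-4.18 ± 0.21), Nr3c1 (-4.12 ± 0.16), Gap43 (-4.01 ± 0.31) and Gnrhr (-3.84 ± 0.61). Nr3c1, the glucocorticoid receptor, was at 3.59 and 2.95 CPM in high-Prl lactotropes, against 62.5 and 71.7 CPM in somatotropes, 30.7 and 31.3 CPM in gonadotropes and 97.7 and 78.1 CPM in Pomc cells. Cidea, a lipid droplet protein, was at 6.47 and 6.35 CPM, against 140 to 283 CPM in the other 6 libraries. Alcam, a cell adhesion molecule, was at 8.05 and 9.30 CPM, against 133 to 233 CPM. These 3 were lower than in each of somatotropes, gonadotropes and Pomc cells. Gnrhr, the receptor for gonadotropin-releasing hormone, stood far apart in gonadotropes: it was at 0.575 and 0.34 CPM in high-Prl lactotropes, against 369 and 341 CPM in gonadotropes and at most 1.34 CPM in somatotropes and Pomc cells.

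**Figure D3:**
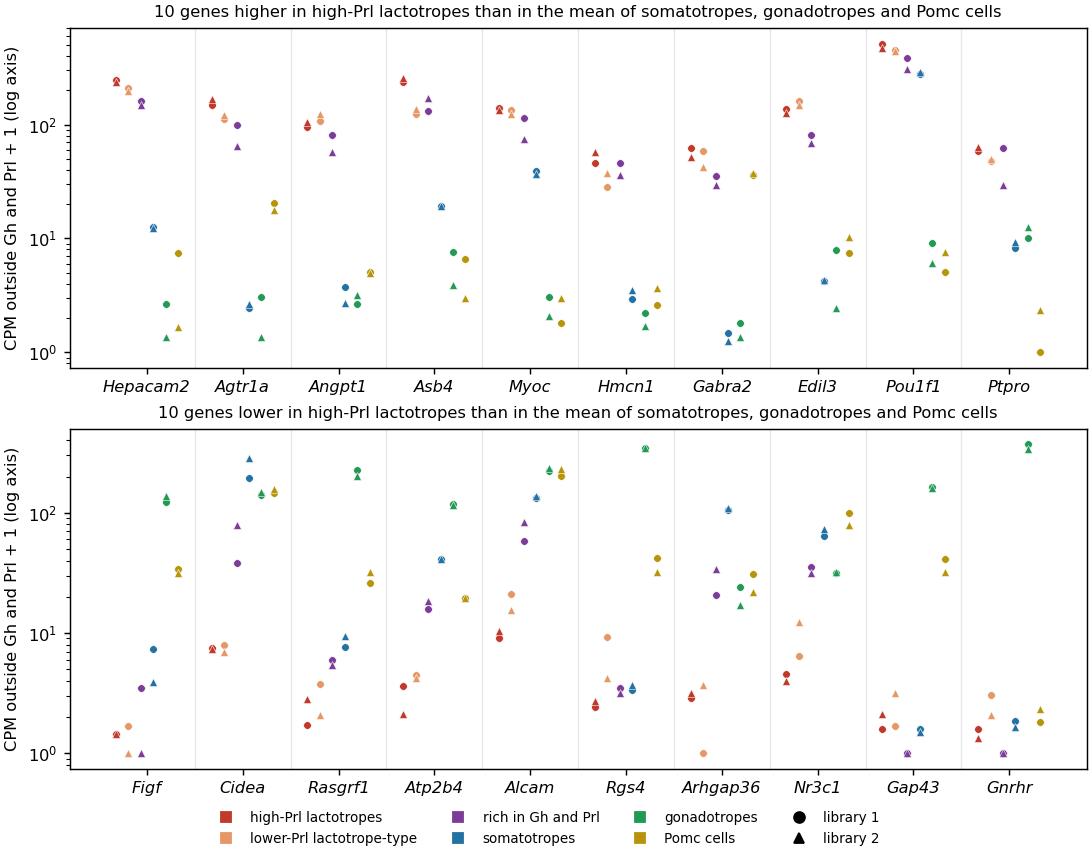
Level of the 10 genes of at least 50 CPM with the highest (top) and the lowest (bottom) log2 fold change in high-Prl lactotropes, as CPM outside Gh and Prl plus 1 on a log axis, in 6 cell groups (colours) and 2 libraries (circle, library 1; triangle, library 2). Lower-Prl cells lie near the high-Prl lactotropes in nearly all of these genes, while somatotropes, gonadotropes and Pomc cells are lower in the top row and mostly higher in the bottom row.

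Of 12036 genes tested, 3100 were higher and 2917 lower in high-Prl lactotropes than in the mean of the 3 groups (50.0% called; 25.8% higher and 24.2% lower), and 715 and 1095 of them differed at least 2-fold (5.94% and 9.10%). At this share a call alone says little of a gene, so sizes and levels are given. Counts of the lists below are to be read beside these shares. For somatotropes alone the shares higher and lower are 24.9% and 25.6%, for gonadotropes alone 26.0% and 26.8%, and for Pomc cells alone 19.4% and 19.2%. The split rests on the TMM scaling. With plain totals outside Gh and Prl, the median of all genes moved to 0.15 on the log2 scale. The split then became 4479 higher and 2106 lower (37.2% and 17.5%).

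Set against somatotropes alone, 3001 genes were higher and 3076 lower (50.5% called), or 2301 and 4135 with plain totals. Of the genes with at least 50 CPM in the higher group, here and against the next 2 groups, the 5 highest were Gabra2 (7.22 ± 0.19), Agtr1a (6.63 ± 0.13), Angpt1 (5.48 ± 0.13), Edil3 (5.29 ± 0.12) and Lrp1b (5.19 ± 0.15), a large endocytic receptor of the LDL receptor family at 62.7 and 59.5 CPM, against 1.47 and 1.81 CPM. The 5 lowest were Ceacam10 (-5.97 ± 0.19), Pappa2 (-5.75 ± 0.15), Arhgap36 (-5.69 ± 0.17), Cidea (-5.22 ± 0.13) and Ghrhr (-5.20 ± 0.11). Ghrhr, the receptor for growth hormone-releasing hormone, was at 6.32 and 6.46 CPM in high-Prl lactotropes, against 245 and 226 CPM in somatotropes. Pou1f1, which both types need, was at 513 and 467 CPM in high-Prl lactotropes and 278 and 287 CPM in somatotropes (0.79 ± 0.07, edgeR adjusted p = 1.06e-14).

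Against gonadotropes 3134 genes were higher and 3231 lower (52.9% called), and 4481 and 2379 with plain totals. Hepacam2 (7.94 ± 0.22), Agtr1a (7.08 ± 0.23), Gabra2 (6.55 ± 0.32), Myoc (6.45 ± 0.21) and Upk3a (6.30 ± 0.35), which encodes a uroplakin of the urothelial membrane, were highest. Upk3a was at 105 and 109.7 CPM in high-Prl lactotropes, against 1.23 and 1.44 CPM in gonadotropes. At the low end stood Speer4e, Gnrhr (-9.57 ± 0.17), Nr0b1, Lhb and Fshb (-9.04 ± 0.08). Fshb encodes the hormone-specific chain of follitropin and was at 12.2 and 11.2 CPM in high-Prl lactotropes, against 5972 and 6322 CPM. Lhb helped to choose the gonadotropes and is no result. Nr0b1, a nuclear receptor of the gonadal axis, was at 0.287 and 0 CPM, against 85.2 and 78.7 CPM in gonadotropes.

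Against Pomc cells 2332 genes were higher and 2307 lower (38.5% called), and 4736 and 1395 with plain totals. Myoc (6.52 ± 0.27), Pou1f1 (6.47 ± 0.15), Ptpro (6.33 ± 0.41), a receptor-type tyrosine phosphatase, Hepacam2 (6.18 ± 0.21) and Asb4 (6.07 ± 0.21) were highest, and Cdh13, Pax7, Oacyl (-8.35 ± 0.18), Esm1 (-8.34 ± 0.25) and Tbx19 (-7.50 ± 0.25) lowest. Tbx19, the transcription factor that drives Pomc, was at 0.718 and 0.794 CPM in high-Prl lactotropes, against 144 and 139.6 CPM in Pomc cells. Pax7, the factor of melanotropes, was at 0.144 and 0.113 CPM, against 48.5 and 52.8 CPM.

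Transcription factors of the pituitary were in part shared with other lineages. Of 25 tested, 7 were higher and 11 lower than the mean of the 3 groups, against 25.8% and 24.2% of all genes. The median log2 fold change was -0.30 (all genes 0.00), and plain totals gave 9 higher and 10 lower. Lhx3, a LIM homeobox factor of the early gland, was at 112 and 96.8 CPM in high-Prl lactotropes, 13.03 and 12.2 CPM in somatotropes, 69.2 and 65.0 CPM in gonadotropes and 58.2 and 47.4 CPM in Pomc cells (1.55 ± 0.08). Neurod4, a basic helix-loop-helix factor, was at 23.9 and 29.1 CPM in high-Prl lactotropes and 26.6 and 29.5 CPM in somatotropes, against at most 4.92 CPM in gonadotropes and Pomc cells (2.60 ± 0.22). Etv1, an ETS factor, was at 22.3 and 26.2 CPM in high-Prl lactotropes, 2.77 and 4.46 CPM in somatotropes and 170.4 and 202 CPM in Pomc cells. Gata2 (0.862 and 0.567 CPM), Neurod1 (0.718 and 0.113 CPM) and Isl1 (3.45 and 1.59 CPM) were low in high-Prl lactotropes.

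Among receptors, those for oestrogen, thyroid hormone and angiotensin were high, and those for glucocorticoid, growth hormone, interleukin-6 and prolactin itself low. Not all of them stood so against each of the 3 groups. Of 27 tested of 42 listed, 8 were higher and 13 lower, against 25.8% and 24.2% of all genes. Plain totals gave 9 and 11. The median was -1.03, or -1.17 with genes at 0 in a group at their bound from 3 counts. Esr1, the oestrogen receptor alpha, was at 91.2 and 91.3 CPM in high-Prl lactotropes, 46.5 and 37.6 CPM in somatotropes, 124 and 128 CPM in gonadotropes and 4.85 and 4.67 CPM in Pomc cells. It was thus above somatotropes (1.13 ± 0.08) and Pomc cells (4.26 ± 0.23) and below gonadotropes (-0.47 ± 0.09, edgeR adjusted p = 2.37e-05). Thrb, the thyroid hormone receptor beta, was at 56.9 and 61.8 CPM in high-Prl lactotropes, against 23.1 and 31.7 CPM in somatotropes and at most 8.60 CPM in gonadotropes and Pomc cells (3.11 ± 0.16). Thra, the alpha form, was at 97.9 and 86.6 CPM, close to the 102 and 106 CPM of Pomc cells. Vdr, the vitamin D receptor, was low throughout, with 4.45 and 5.44 CPM in high-Prl lactotropes, 2.51 and 1.47 CPM in somatotropes and 0 CPM in both libraries of Pomc cells.

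Prlr, the prolactin receptor, was at 27.4 and 27.4 CPM in high-Prl lactotropes, against 89.2 and 100.9 CPM in somatotropes, 70.9 and 69.0 CPM in gonadotropes and 29.9 and 39.4 CPM in Pomc cells (-1.17 ± 0.11). The 13 genes of prolactin receptor signalling included 1 higher and 6 lower (median -0.18), against 25.8% and 24.2% of all genes. Plain totals gave 2 and 5. Stat5a, a transcription factor downstream of the receptor, was the higher gene, at 18.97 and 16.2 CPM, against 5.33 to 12.9 CPM in the other 6 libraries (1.10 ± 0.16). Socs2 (-1.01 ± 0.08), a feedback inhibitor, and Stat3 (-0.74 ± 0.10) were lower. Ghr, the growth hormone receptor, was at 1.29 and 1.02 CPM in high-Prl lactotropes, against 4.22 to 17.2 CPM. Il6ra, the interleukin-6 receptor alpha, was at 1.01 and 0.227 CPM, against 9.42 to 60.1 CPM.

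The receptors for dopamine, thyrotropin-releasing hormone and vasoactive intestinal peptide were barely detected. Whether the annotation used for counting covers the 3′ ends of these genes could not be checked, so a low count need not mean a low level. Drd2 had 3 and 4 UMIs in high-Prl lactotropes, 1 and 0 in lower-Prl cells and 0 in somatotropes, gonadotropes and Pomc cells. Over the 15176621 UMIs of the high-Prl lactotropes outside Gh and Prl this is 0.461 CPM (exact Poisson 95% interval 0.185 to 0.95, counting error only). Trhr, the receptor for thyrotropin-releasing hormone, had 1 and 3 UMIs in high-Prl lactotropes, against 6 and 7 in the larger group of somatotropes. Vipr1, Vipr2, Galr1 and Galr2, receptors for vasoactive intestinal peptide and galanin, had 0 UMIs in high-Prl lactotropes, which allows up to 0.198 CPM (3 counts). Calcrl, the receptor that Ramp1 partners, had 2 and 0 UMIs in high-Prl lactotropes, against 46 and 47 in the endothelial cells, and Calcr, the calcitonin receptor, had none in any of these groups. None of these genes entered the test.

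In single cells the same genes were seen in a minority to a majority of high-Prl lactotropes. With each cell thinned to 2000 UMIs outside Gh and Prl, which left out 21 and 16 shallower high-Prl lactotropes, Hepacam2 had a UMI in 38.1 ± 0.896% of them (SD, n = 2), Asb4 in 37.8 ± 1.95%, Agtr1a in 26.9 ± 0.662%, Ramp1 in 26.5 ± 0.233%, Edil3 in 22.5 ± 1.06% and Angpt1 in 19 ± 0.919%. Endothelial cells at the same depth, the background, had a UMI of Hepacam2 in 0.333% and of Edil3 in 4.68%. Esr1 was seen in 17.6 ± 0.276% of high-Prl lactotropes and 0.764% of endothelial cells, and Prlr in 4.65 ± 0.686% and 0.333%. Without thinning, at median depths of 5630 and 5724 UMIs outside Gh and Prl, Hepacam2 reached 71.9%, Agtr1a 54.9%, Angpt1 40.7% and Prlr 14.1% of high-Prl lactotropes. In endothelial cells, with median depths of 4268 and 4238, Hepacam2 reached 1.10% and Agtr1a 1.10%.

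The machinery that moves secretory proteins into the endoplasmic reticulum was higher almost as a whole. Of 31 genes for signal peptide handling and the translocon, 25 were higher and 1 lower than the mean of the 3 groups (median 0.53), against 25.8% higher and 24.2% lower among all genes. Ssr2, the beta subunit of the translocon-associated protein complex, was at 805 and 793 CPM in high-Prl lactotropes, 453 and 444 CPM in somatotropes, 199.9 and 215 CPM in gonadotropes and 169.6 and 192 CPM in Pomc cells (1.64 ± 0.05). Ostc (1.10 ± 0.05) and Rpn2 (1.02 ± 0.05), parts of the oligosaccharyltransferase that attaches sugars, Spcs2 (1.03 ± 0.05) of the signal peptidase and Srprb (1.10 ± 0.08) of the signal recognition particle receptor were higher too. Stt3a, the catalytic subunit that works together with the translocon, was higher (0.91 ± 0.06), while Stt3b, the other catalytic subunit, was the 1 gene that was lower (-0.41 ± 0.10), at 36.8 and 37.9 CPM. The list was higher against Pomc cells in 28 of 31 genes (0 lower) and against gonadotropes in 25 (2 lower), but against somatotropes in only 15 (2 lower, median 0.13), or 11 with 6 lower under plain totals. The test of the difference between these counts was not made.

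Of 30 folding and stress genes of the endoplasmic reticulum 19 were higher and 2 lower (median 0.39), against 25.8% and 24.2% of all genes. Plain totals gave 22 and 1. Against somatotropes alone 14 were higher and 7 lower (median 0.12), or 12 and 9 with plain totals (median 0.00). Manf, a secreted stress-induced neurotrophic factor, was at 1433 and 1587 CPM in high-Prl lactotropes, against 872 and 858 CPM in somatotropes and 509.6 to 589.7 CPM in gonadotropes and Pomc cells (1.25 ± 0.04). Dnajb9 (1.31 ± 0.05), a cochaperone of the chaperone encoded by Hspa5, and Sdf2l1 (1.27 ± 0.10), part of a chaperone complex, were about as much higher. Hspa5 itself was at 1103 and 1247 CPM, against 1042 and 1064 CPM in somatotropes (0.43 ± 0.04 against the mean of 3). Ddit3, which encodes the death-linked stress factor CHOP, was at 88.4 and 133.5 CPM in high-Prl lactotropes and 207 and 241 CPM in somatotropes. Against the mean of 3 its log2 fold change was only -0.27 ± 0.09. Its call was lost with plain totals, with the Prl minimum at 25% and without the library term, and its 2 libraries lay far apart. Sel1l, an adaptor for the degradation of misfolded proteins, was the other lower gene (-0.52 ± 0.09).

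Of 19 genes for granule cargo and prohormone processing, 7 were higher and 9 lower than the mean of the 3 groups (median -0.18). Among all genes 25.8% were higher and 24.2% lower. Plain totals gave 8 and 7 for the list (median -0.02). Against somatotropes alone 11 were higher and 5 lower (median 0.81). Chgb, the granule protein chromogranin B, was at 8999 and 9455 CPM in high-Prl lactotropes, against 1185 and 1538 CPM in somatotropes, 1143 and 1175 CPM in gonadotropes and 787 and 561 CPM in Pomc cells (3.18 ± 0.14, edgeR adjusted p = 1.02e-05). Chga, chromogranin A, went the other way, with 306 and 279 CPM in high-Prl lactotropes, 129 and 108 CPM in somatotropes, 4080 and 3487 CPM in gonadotropes and 1052 and 994 CPM in Pomc cells (-1.40 ± 0.05). Scg5, the chaperone of a prohormone convertase, was at 2928 and 2943 CPM (1.02 ± 0.04), Scg3 at 428 and 424 CPM (1.03 ± 0.06) and Nucb2, the nesfatin precursor, at 415 and 442 CPM (1.08 ± 0.05). Pcsk2, a prohormone convertase, was at 48.1 and 48.5 CPM in high-Prl lactotropes, 17.8 and 17.4 CPM in somatotropes and 1002 and 1045 CPM in Pomc cells, which cleave their hormone precursor. Sytl4, the granule effector granuphilin, was at 10.8 and 7.94 CPM in high-Prl lactotropes, against 195 and 176 CPM in somatotropes and 64.3 to 123 CPM in gonadotropes and Pomc cells (-3.63 ± 0.10).

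Release genes divided within families. Of 27 exocytosis genes 5 were higher and 13 lower (median -0.29), against 25.8% and 24.2% of all genes. Plain totals gave 9 and 11 (median -0.13, all genes 0.15), and against somatotropes alone 10 were higher and 10 lower. Among synaptotagmin-like Rab27 effectors, Sytl1 was at 41.5 and 39.9 CPM in high-Prl lactotropes, against 2.15 and 2.55 CPM in somatotropes and 9.83 to 24.0 CPM in gonadotropes and Pomc cells (2.37 ± 0.13), so that it stood above Sytl4, of the same family, in these cells and below it in somatotropes. These are counts of transcript ends, so the comparison within a cell type does not need gene length. Rab3c, a granule GTPase, was at 99.3 and 95.1 CPM, against 17.1 and 17.9 CPM in somatotropes (1.73 ± 0.09 against the mean of the 3 groups). Rab3b was at 45.3 and 42.9 CPM, against 143 and 135 CPM in somatotropes and 226 to 358 CPM in gonadotropes and Pomc cells (-2.36 ± 0.07). Cadps, a priming factor (1.56 ± 0.16), and Cplx2, a complexin (1.10 ± 0.08), were higher. Syt1, a calcium sensor, was at 20.1 and 25.2 CPM, against 110.2 and 110.8 CPM in somatotropes (-1.65 ± 0.10 against the mean of the 3 groups).

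Of 19 potassium channel genes 3 were higher and 10 lower (median -1.17), against 25.8% and 24.2% of all genes. The counts were the same under plain totals, and against somatotropes alone 5 were higher and 10 lower. Kcnk2, a leak channel of the tandem-pore family, was at 54.3 and 50.0 CPM in high-Prl lactotropes, against 232 and 207 CPM in somatotropes and 83.4 to 132 CPM in gonadotropes and Pomc cells (-1.32 ± 0.07). Kcnmb4, a subunit of calcium-activated channels, was at 7.62 and 9.41 CPM, against 31.4 to 86.0 CPM (-2.48 ± 0.15). Kcnd3, an A-type channel, was the highest of the 3 higher genes, at 19.3 and 17.8 CPM, against 0 to 6.59 CPM (2.75 ± 0.24). Of 24 calcium, sodium and cation channel genes 6 were higher, near the share of all genes (25.8%), and 10 lower (all genes 24.2%), with a median of -0.43. Plain totals gave 7 and 7 (median -0.28, all genes 0.15), and against somatotropes alone 10 were higher and 8 lower. Scn3a (0.52 ± 0.10) and Cacnb4 (0.82 ± 0.28, a call lost with DESeq2) were among those higher than the mean.

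In signalling through cyclic nucleotides, 10 of 37 genes were higher, near the share of all genes (25.8%), and 14 lower (all genes 24.2%). The median was 0.00, that of all genes. With plain totals the counts were 14 and 9. Gnai1 and Gnaz, inhibitory G protein subunits of the kind that dopamine receptors couple to, were both higher. Gnai1 was at 48.0 and 58.5 CPM in high-Prl lactotropes, 1.88 and 1.42 CPM in somatotropes, 13.5 and 9.34 CPM in gonadotropes and 17.0 and 21.4 CPM in Pomc cells (2.90 ± 0.12). Gnaz was at 53.5 and 55.0 CPM, against 8.48 to 26.7 CPM (1.68 ± 0.10). Rgs4, a regulator that speeds the turn-off of G proteins, was at 1.44 and 1.70 CPM in high-Prl lactotropes and 346 and 346 CPM in gonadotropes, whereas Rgs8 was at 14.7 and 14.6 CPM, against 0 to 4.67 CPM in the other 6 libraries (2.62 ± 0.27).

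Of 24 imprinted genes 7 were higher, near the share of all genes (25.8%), and 11 lower (all genes 24.2%), with a median of -0.09. Plain totals gave 10 and 10 (median 0.06, all genes 0.15). Nnat, a small membrane protein of the endoplasmic reticulum, was at 25330 and 24430 CPM in high-Prl lactotropes, against 7169 and 6431 CPM in somatotropes, 2438 and 2424 CPM in gonadotropes and 9440 and 8721 CPM in Pomc cells (2.23 ± 0.02). Mest, which encodes a hydrolase-like membrane protein, was at 647 and 646 CPM (1.51 ± 0.06), and Asb4 led the list. Dlk1, a Notch ligand-like protein, was at 1447 and 1335 CPM in high-Prl lactotropes, 6472 and 6650 CPM in somatotropes, 120 and 134 CPM in gonadotropes and 668 and 466 CPM in Pomc cells, so that its place depended on the partner.

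Of 31 secreted factors 19 were lower and 2 higher, against 24.2% and 25.8% of all genes. The median was -1.56, or -1.72 with genes at 0 at their bound. Against somatotropes alone 13 were lower and 2 higher (median -0.72). Vip, vasoactive intestinal peptide, was 1 of the 2 higher than the mean of the 3 groups (3.41 ± 0.47). It was at only 7.47 and 3.18 CPM in high-Prl lactotropes, against 0 to 1.64 CPM in the other 6 libraries. Of 15 angiopoietin and vascular genes 6 were higher and 3 lower, against 25.8% and 24.2% of all genes. Beside Angpt1 and Edil3, Nrp1, a co-receptor of semaphorins and VEGF, was higher, at 16.4 and 17.2 CPM, against 0.808 to 4.67 CPM (2.46 ± 0.22). Vegfa was at 2.299 and 2.72 CPM in high-Prl lactotropes, 2.72 and 3.09 CPM in somatotropes and 76.2 and 78.7 CPM in gonadotropes. Of 5 tested genes for receptors, partners and ligands of the calcitonin family, 2 were higher and 1 lower, against 25.8% and 24.2% of all genes. The 2 were Ramp1 and Crcp (0.63 ± 0.12). Angpt1, Edil3 and Ramp1 were picked as markers with results on these cells known, so their part in these counts is a description.

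Of 26 cholesterol and lipid synthesis genes 13 were lower and 1 higher (median -0.29), against 24.2% and 25.8% of all genes. Plain totals gave 8 lower and 5 higher (median -0.14). Against somatotropes alone 21 were lower and 2 higher (median -0.89), but against gonadotropes 6 were lower and 12 higher (median 0.28). Hmgcs1, an enzyme of cholesterol synthesis, was at 25 and 25.1 CPM in high-Prl lactotropes, against 74.3 and 89.9 CPM in somatotropes. Elovl6, a fatty acid elongase, was the gene higher against the mean, at 33.8 and 38.8 CPM, against 5.66 to 29.4 CPM (1.49 ± 0.13). Immediate early genes, which dissociation can switch on, numbered 3 higher and 8 lower of 25, against 25.8% and 24.2% of all genes. Their median was -0.13, or 0.02 with plain totals, where all genes have 0.15. Fosb was at 24.0 and 34.5 CPM in high-Prl lactotropes, against 59.5 to 129.5 CPM (-1.82 ± 0.10), and Atf3 at 34.9 and 40.4 CPM, against 103 to 166 CPM (-1.82 ± 0.15).

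**Figure D4:**
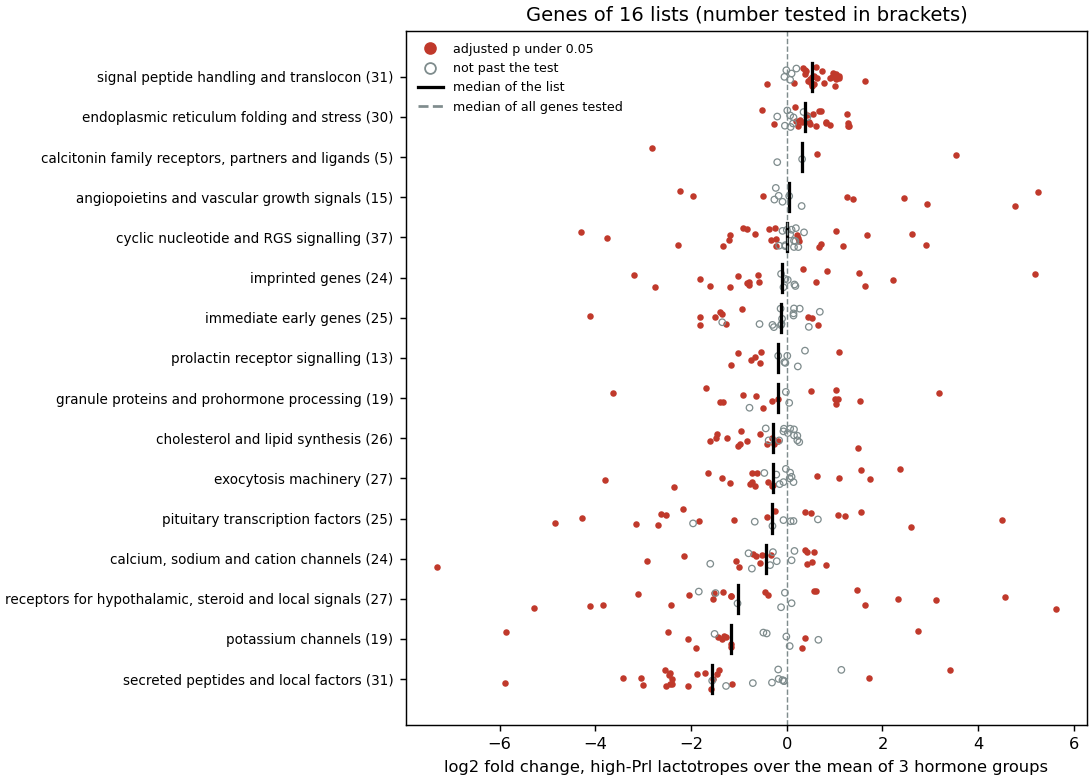
Log2 fold change of each tested gene of 16 lists, high-Prl lactotropes over the mean of somatotropes, gonadotropes and Pomc cells (horizontal axis), with 1 row a list and the vertical scatter within a row only for legibility. Filled points passed an adjusted p of 0.05, bars are list medians and the dashed line is the median of all genes; the translocon list has its median at 0.53 and the list of secreted factors at -1.56.

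Cells with 2 to 15% Prl differed from high-Prl lactotropes in Rnf128, Eno3, Scg2 and Asb4, which were higher in high-Prl lactotropes, and in Ramp1, Dapl1 and Ly6h, which were lower. The test called 332 genes higher and 410 lower in high-Prl lactotropes (6.16% of 12036; 2.76% higher and 3.41% lower), 165 and 310 with DESeq2 and 184 and 285 without the library term. Rnf128, a ubiquitin ligase of the endosome, was at 61.9 and 64.9 CPM in high-Prl lactotropes, against 18.5 and 17.8 CPM in lower-Prl cells (1.81 ± 0.16). Eno3, the muscle form of enolase, was at 189 and 181 CPM, against 54.2 and 61.6 CPM (1.68 ± 0.12). Chgb was at 8999 and 9455 CPM, against 4631 and 4561 CPM (1.0 ± 0.18, edgeR adjusted p = 0.0424). The difference in Chgb was alike in both libraries (0.96 and 1.05), though the call was lost with no filter on low counts and with the cells rich in both hormones left out of the fit.

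The 10 highest of the genes with at least 50 CPM in the higher group also held Asb4 (0.93 ± 0.09), Efemp1 (0.86 ± 0.12), a matrix glycoprotein, Cd24a (0.86 ± 0.12), a surface sialoglycoprotein, Gnai1 (0.78 ± 0.16), Scg2 (0.77 ± 0.04), the secretogranin II gene, and Zcchc12 (0.77 ± 0.11). Scg2 was at 1710 and 1804 CPM in high-Prl lactotropes, against 1002 and 1063 CPM in lower-Prl cells. Pcsk2 (1.32 ± 0.15) and Etv1 (1.34 ± 0.24), both under 50 CPM, were higher too. Of the granule list 6 of 19 were higher and 3 lower, against 2.76% and 3.41% of all genes. Of the translocon list 7 of 31 were higher and 1 lower, and of the folding list 8 of 30 and 2. Dnajb9 was at 449 and 517 CPM, against 337 and 390 CPM (0.41 ± 0.07), Xbp1, the splicing-controlled factor of the stress response, at 239 and 260.0 CPM, against 175 and 194 CPM (0.43 ± 0.08), and Creld2 at 96.7 and 125.5 CPM, against 71.3 and 87.1 CPM (0.48 ± 0.11, a call lost without the library term).

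Of the lactotrope markers, Ramp1 was lower in high-Prl lactotropes, at 170.1 and 169 CPM, against 270.8 and 269.8 CPM in lower-Prl cells (-0.68 ± 0.09, edgeR adjusted p = 2.40e-07). Hepacam2 (0.24 ± 0.09, adjusted p = 0.0903), Angpt1 (-0.21 ± 0.11, adjusted p = 0.304) and Edil3 (-0.24 ± 0.10, adjusted p = 0.181) did not pass the edgeR test, nor did Pou1f1 (0.13 ± 0.07, adjusted p = 0.376). Agtr1a was higher, at 149 and 167 CPM, against 110.4 and 121 CPM (0.45 ± 0.10), a call lost with DESeq2. Gal, the galanin gene, was at 31.6 and 34.6 CPM in high-Prl lactotropes, against 147 and 124 CPM in lower-Prl cells. Its difference did not pass the edgeR test (-2.0 ± 0.97, adjusted p = 0.396). That test shares its spread over all groups of the fit, and Gal was at 306 and 6.68 CPM in Pomc cells. Whether this bears on the result was not tested.

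By the same minimum, the 10 lowest against lower-Prl cells were H2-Ab1 (-4.38 ± 0.41), H2-Aa (-3.83 ± 0.61), Cd74 (-3.43 ± 0.53), Igfbp3 (-2.78 ± 0.38), Timp3 (-2.54 ± 0.37), Plvap (-1.90 ± 0.17), Dapl1 (-1.74 ± 0.10), Hmgcs1 (-1.14 ± 0.16), Ly6h (-1.13 ± 0.19) and Fosb (-1.13 ± 0.15). H2-Ab1, H2-Aa and Cd74 serve class II antigen presentation, and Plvap is an endothelial gene. H2-Ab1 was at 4.60 and 2.16 CPM in high-Prl lactotropes, against 65.1 and 70.3 CPM in lower-Prl cells. Markers of other cell types moved with them: the 6 endothelial markers summed to 42.8 and 35.8 CPM in high-Prl lactotropes, against 127 and 182 CPM in lower-Prl cells, the 5 macrophage markers to 14.9 and 20.4 CPM, against 135 and 122 CPM, the 5 stem cell markers to 28.2 and 18.5 CPM, against 108 and 59.9 CPM, and the 4 red cell markers to 1200 and 1167 CPM, against 4227 and 3619 CPM. None of the endothelial, macrophage or stem cell markers was at 0 in either group, and their part in the difference was not tested. Timp3, Ly6h and Fosb lost their call without the library term, and H2-Aa and Cd74 lost it without the highest doublet scores and in the fit without cells rich in both hormones. Dapl1, at 39.7 and 38.2 CPM, against 136 and 124 CPM, and Ly6h, a small lipid-anchored surface protein at 1579 and 1358 CPM, against 3327 and 3095 CPM, are not on those marker lists.

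Cells rich in both Gh and Prl differed from high-Prl lactotropes in 445 genes, 214 higher and 231 lower in high-Prl lactotropes (3.70% of 12036; 1.78% higher and 1.92% lower), or 93 and 285 with plain totals. Ghrhr was at 6.32 and 6.46 CPM in high-Prl lactotropes, against 71.8 and 92.0 CPM in the cells rich in both (-3.68 ± 0.24). Alcam was at 8.05 and 9.30 CPM, against 56.98 and 83.2 CPM (-3.02 ± 0.24), and Sytl4 at 10.8 and 7.94 CPM, against 66.9 and 63.5 CPM (-2.82 ± 0.25). The cells rich in both thus lay between high-Prl lactotropes and somatotropes in these genes. Among the 7.6% of barcodes with the highest doublet scores were 2.61% and 1.89% of high-Prl lactotropes, against 55.2% and 88.1% of the cells rich in both, whose median depth in library 2 was 22238 UMIs. Without those barcodes, 26 and 5 cells rich in both were left and 57 genes were higher and 19 lower, with the call of Alcam lost.

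Within the high-Prl lactotropes, Chgb, Scg2 and 16 of 31 translocon genes rose with the Prl share, and galanin and several small proteins fell. The cells were split into 3 bands with over 15 to 30% (438 and 429 cells), over 30 to 45% (427 and 563) and over 45% Prl (324 and 488), and a slope per band was fitted for each other gene. Depth outside Gh and Prl differed little between bands, with medians of 5683 and 5664, 5748 and 5781, and 5375 and 5720 UMIs. The mitochondrial share of all UMIs fell, with medians of 3.21% and 3.11%, 2.66% and 2.52%, and 2.29% and 2.06%. Prl is part of that total, so a rising Prl share lowers it by itself. The share of UMIs outside Gh and Prl was not computed. Of 10669 genes 379 rose and 378 fell (7.10% called; 3.55% and 3.54%), 93 and 120 with DESeq2.

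Chgb stood at 7055 and 7086 CPM in the lowest band, 9480 and 9500 CPM in the middle band and 12790 and 12640 CPM in the highest, a slope of 0.42 ± 0.01 per band on the log2 scale (edgeR adjusted p = 3.93e-34). Both libraries rose at each step. Scg2 rose likewise, with 1437 and 1535, 1846 and 1842, and 2217 and 2211 CPM (0.29 ± 0.02). Mfge8, a secreted integrin ligand, had the steepest rise of the named genes, with 29.5 and 22.9, 37.0 and 49.2, and 83.7 and 99.0 CPM (0.93 ± 0.07). Next came Rnf128 (0.73 ± 0.06), Chrnb3, a nicotinic receptor subunit (0.72 ± 0.07), Eno3 (0.58 ± 0.04), Pcsk2 (0.55 ± 0.07), Efemp1 (0.44 ± 0.04) and Gnai1 (0.40 ± 0.06). Etv1 rose with 13.8 and 19.7, 20.3 and 23.7, and 41.9 and 38.1 CPM (0.64 ± 0.10). Of the 19 granule genes as a list 5 rose and 4 fell, against 3.55% and 3.54% of all genes.

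Gal fell most of the named genes, which reached 50 CPM in the higher band, with 56.7 and 68.7 CPM in the lowest band, 25.6 and 33.2 CPM in the middle band and 7.78 and 9.43 CPM in the highest (-1.30 ± 0.09, edgeR adjusted p = 3.75e-16). Ly6h fell with 2389 and 2299, 1485 and 1360, and 757 and 663 CPM (-0.86 ± 0.04). Qpct, glutaminyl cyclase, which forms the pyroglutamate end of peptides, fell with 125 and 127, 81.7 and 86.2, and 38.9 and 43.1 CPM (-0.76 ± 0.05). The rest of the 8 steepest falls among these genes were Dapl1 (-0.69 ± 0.08), Kcnk2 (-0.69 ± 0.07), Marcksl1 (-0.60 ± 0.08), a substrate of protein kinase C, Prdx4, a peroxiredoxin of the endoplasmic reticulum (-0.60 ± 0.04), and Calb1, the calcium buffer calbindin (-0.58 ± 0.06). In each of these 8 genes every band was lower than the band before it in both libraries. Vip fell too (-1.0 ± 0.25), though the call was lost with DESeq2 and without the library term, as did the proSAAS gene Pcsk1n (-0.38 ± 0.04).

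**Figure D5:**
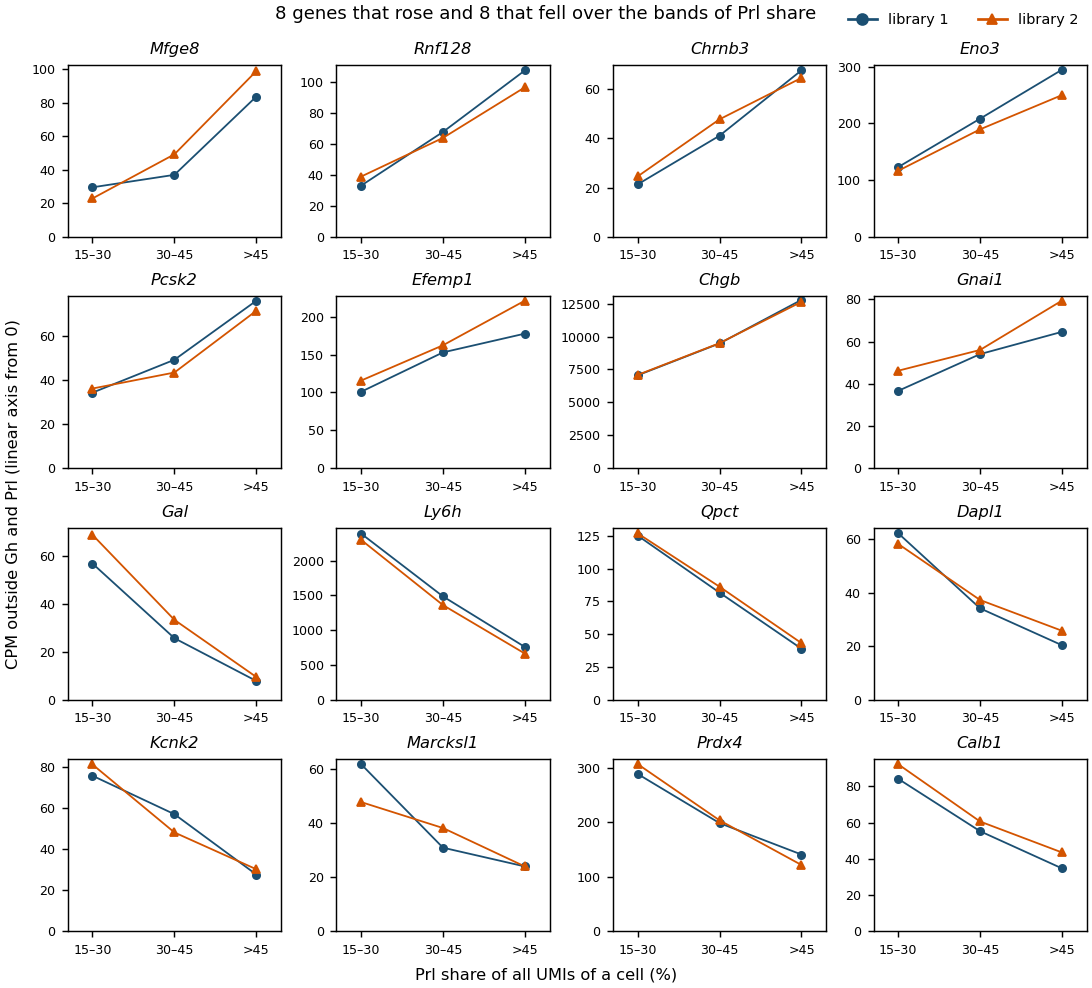
Level of the 8 named genes with the steepest rise (upper rows) and the 8 with the steepest fall (lower rows) over 3 bands of Prl share in high-Prl lactotropes, as CPM outside Gh and Prl on linear axes from 0, in library 1 (circles) and library 2 (triangles). Chgb rises to 12790 and 12640 CPM in the highest band and Gal falls to 7.78 and 9.43 CPM, with the libraries close to each other.

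Of the translocon list 16 of 31 rose over the bands and 2 fell, against 3.55% and 3.54% of all genes. The slopes were small: Srprb had 0.24 ± 0.04, Spcs2 0.19 ± 0.02 and Tram1, a protein beside the channel, 0.19 ± 0.03, while Ssr4 fell (-0.19 ± 0.02) and Ssr2, the gene that stood out against other cell types, had -0.04 ± 0.02 and did not pass the edgeR test (adjusted p = 0.355). Of the folding list 8 of 30 rose and 1 fell, with Dnajb9 at 0.23 ± 0.03, Creld2 at 0.27 ± 0.04 (a call lost without the library term) and Manf at 0.13 ± 0.02. Markers went apart: Asb4 rose (0.27 ± 0.03), Ramp1 (-0.32 ± 0.04), Angpt1 (-0.23 ± 0.05) and Edil3 (-0.23 ± 0.04) fell, and Hepacam2 (0.04 ± 0.03, adjusted p = 0.579) and Pou1f1 (-0.01 ± 0.03, adjusted p = 0.861) did not pass the edgeR test. With DESeq2 the calls of Angpt1, Edil3 and Srprb were lost. Prlr had 37.8 and 35.3, 27.2 and 24.0, and 16.8 and 27.6 CPM (-0.34 ± 0.10), a fall that library 2 showed only between the lowest and middle bands and that DESeq2 did not call.

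Among high-Prl lactotropes of 1 library, the genes whose thinned counts varied most between cells were 4 globin genes. Their Fano factors, the variance divided by the mean and near 1 for counting noise alone, were 208 and 327 for Hbb-bs, 121 and 155 for Hba-a1, 98.7 and 123 for Hba-a2 and 47.6 and 34.9 for Hbb-bt, while the median of 2652 genes was 0.996. Globin UMIs were absent from 68.7% and 69.1% of high-Prl lactotropes and exceeded 1% of the UMIs outside Gh and Prl in 6 and 9 cells. The next genes were the nuclear RNA Malat1 (18.99 and 17.3), the heat shock genes Hspb1 (10.7 and 12.1) and Hspa1a (13.7 and 10.4), Nnat (8.65 and 7.63), Jun (6.71 and 6.97) and Apoe (8.19 and 6.58), which carries lipids. Hspa1a had a UMI in 73.5% and 77.0% of thinned cells, Jun in 39.0% and 46.5%, and Nnat in 100% and 99.9%. Chgb, named here after its values were seen, had 5.78 and 5.96.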

How the data were processed

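Per the submitters' processing notes, reads were handled with Cell Ranger and STAR against mm10. No version is stated in those notes. The deposited matrix holds raw UMI counts of 28693 genes in 13663 barcodes. The authors also deposited a t-SNE map, whose coordinates are scores with no unit. The number that ends each barcode was taken as that of the pool. Barcodes passed with 250 genes or more and no more than 20% mitochondrial UMIs (13565), and 58 repeated symbols were told apart by their identifiers.

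Counts were summed per cell group and library, since cells of a pool are no replicates, and were fitted in edgeR 4.0.16 (quasi-likelihood, robust, TMM on totals outside Gh and Prl, filterByExpr, library as a block) and Benjamini-Hochberg adjustment at 0.05. Same-numbered sums come from the same 3 glands, so the block pairs them by design. The fit of 6 groups had 12 columns of 366209 to 18207703 UMIs, 5 residual degrees of freedom and a biological coefficient of variation of 0.0587. The fit of 3 bands had 6 columns, 3 residual degrees of freedom and 0.0509, and its residual also holds departures from a straight line over the bands. Gh, Prl, Pomc, Cga, the 8 mitotic genes and mitochondrial genes were left out of the tests. The steps were tested on simulated data in which few genes changed and no gene differed by library. That setting is unlike these data, so it does not test the calls reported here.

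Doublet scores came from a neighbour method with 2 simulated doublets per cell, 30 components and 2000 variable genes, and the top 7.6%, the multiplet rate per the labels, were removed in an alternative only. Other alternatives were DESeq2 1.42.0, other totals, no filter, stricter bounds and no library block. Intervals are exact binomial at 95%. They and limits from 3 counts cover counting error only.

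The genes named were those past the threshold, of equal sign in each library, and reaching 50 CPM or more in the higher group, predicted genes aside: 10 at the top and 10 at the bottom against the mean of 3 groups and against lower-Prl cells, 5 and 5 against each single group, 8 and 8 slopes over the bands, and the 10 highest Fano factors (mean of at least 0.1 UMI). List members, markers and cells rich in both hormones were named besides. Members, lists, markers and tests were chosen with earlier results of these data known. Promoters are RefSeq (GRCm38.p6), gene positions GENCODE (mm10). List genes without a row of the same symbol were not analysed here. Some genes that the rule names are not reported here.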

Additional observations from a re-analysis of the deposited data

How the results depend on the processing

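Of 238 gene results recomputed, 33 lost their call under at least 1 alternative with a test and 203 kept their side of the threshold under all of these. No called result changed sign. Of those not called, Gal against the mean of 3 groups was at -0.17 as reported and 1.28 without replicate 1, the slope of Pou1f1 at -0.01 and 0.04 without replicate 1, and Pcsk1n against the mean at 0.05 and -0.05 with the Prl minimum at 25%. The value moved in 30 of the 238 without replicate 1 and in 38 without replicate 2. The number of genes called against lower-Prl cells was 475 with DESeq2 and 469 with no replicate block (742 as reported). Against cells rich in Gh and Prl it was 76 without the highest doublet scores (445). The number of genes with a slope over the bands was 213 with DESeq2 (757). The block moved no other count by over 1.5 times, and without it 10 of the 238 lost their call. The causes were not tested. High-Prl lactotropes made up 15.5% of the barcodes kept with a Prl minimum of 25%, and 18.3 to 21.0% with either pool left out. Without thinning, the share of them with a UMI was 40.7% for Angpt1, 71.9% for Hepacam2, 67.9% for Asb4, 50.3% for Edil3, 51.8% for Ramp1, 54.9% for Agtr1a, 39.7% for Esr1, 14.1% for Prlr and 10.9% for Gal. With 1 pool left out no spread is left, so counts of genes could not be recomputed and genes have values only. Alternatives without barcode sequences found in both libraries, without cells over 1% globin UMIs and without the cells rich in both hormones in the fit were added after seeing the data. Depth limits genes under a few CPM, among them Drd2, Vdr and Vip, and the small groups, and 2 pools cannot give the spread between animals.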

Other observations

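Col1a2, the alpha-2 chain gene of type I collagen, was at 134 and 148 CPM in high-Prl lactotropes, against 59.4 and 74.2 CPM in somatotropes, 2.46 and 6.11 CPM in gonadotropes and 2.42 and 10.0 CPM in Pomc cells (log2 fold change against the mean of the 3 groups 3.50 ± 0.13, edgeR adjusted p = 3.48e-16). Before TMM scaling it was at 140 and 152 CPM, and at 111 and 95 CPM in lower-Prl cells. In high-Prl lactotropes its partner chain gene Col1a1 was at 4.37 and 0.585 CPM, the pericyte gene Pdgfrb at 1.36 and 0.468 CPM and the fibroblast gene Lum at 5.88 and 0.468 CPM. The level of Col1a2 was alike in both libraries, whereas Dcn, another fibroblast gene, was at 32.6 and 5.85 CPM.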
